A study of Homo sapiens with 4 samples.

Results

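The comparison described here asked which transcripts differed in U87MG cells when guanosine was added to mycophenolic acid (MPA), set against MPA alone. U87MG is an established human glioblastoma line. The cells, obtained from ATCC and grown in DMEM with 10% fetal bovine serum, were exposed for 24 h to DMSO (control), to 10 µM MPA, to 100 µM guanosine, or to 10 µM MPA with 100 µM guanosine. Total RNA from each of the 4 conditions was hybridised to 1 PrimeView array, an Affymetrix design whose probes lie mostly near the 3′ end of transcripts. The members are all genes on the array: 18132 genes had a probe set assigned to a single gene symbol, and 10956 of them were compared because their signal on at least 1 of the 2 arrays reached the median of all probe sets, a signal of 63 in arbitrary units. The measure is the log2 signal on the MPA-and-guanosine array minus that on the MPA array, so a difference of 1 is 2-fold. With 1 array a side there is no replicate check, no error on any value and no test, so every difference compares 2 libraries, all from 1 cell line at 1 time.

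MPA inhibits inosine monophosphate dehydrogenase (IMPDH), the enzyme that commits inosine monophosphate to guanine nucleotides in the de novo purine pathway. The 2 human isozymes are IMPDH1 and IMPDH2, and IMPDH2 is the form that proliferating cells mainly use. Guanosine enters cells through nucleoside transporters, is cleaved to guanine by purine nucleoside phosphorylase (PNP), and is returned to GMP by hypoxanthine-guanine phosphoribosyltransferase (HPRT1), a route that does not need IMPDH. GTP is a substrate of RNA synthesis, most of which in growing cells is ribosomal RNA made by RNA polymerase I in the nucleolus. When ribosome assembly is disturbed, free ribosomal proteins can bind MDM2 and so stabilise the transcription factor p53, which U87MG carries in its wild-type form.

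With guanosine present beside MPA, 179 of 10956 genes were higher by 2-fold or more than with MPA alone (1.63%), and 170 were lower by that much (1.55%). At a limit of 1.5-fold, 966 genes were higher (8.82%) and 523 lower (4.77%). The difference was under 1.5-fold in 86.4% of genes, its median over all genes compared was 0.02 with an SD of 0.43 across genes, and 5695 genes (52%) were higher by any amount. Over the 179 higher genes the median signal was 284 on the control array, 140 on the MPA array, 312 on the guanosine array and 312 on the array with both compounds. Over the 170 lower genes it was 149, 388, 145 and 141 in the same order. Both sets were chosen by the difference between the MPA array and the array with both compounds, so the gap between those arrays was fixed by the choice. An error of the MPA array would enter that choice as well. The control and guanosine medians, not used in the choice, lay nearer to the array with both compounds than to the MPA array, which was not tested. The members nearest to the 2-fold limit were ZFP69 (1.0001) and TBC1D2 (−1.002) just inside it, ZFP69 with MPA below the floor (at least 1.41-fold), and RASA3 (0.99) and MDM2 (−0.998) just outside it.

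**Figure D1:**
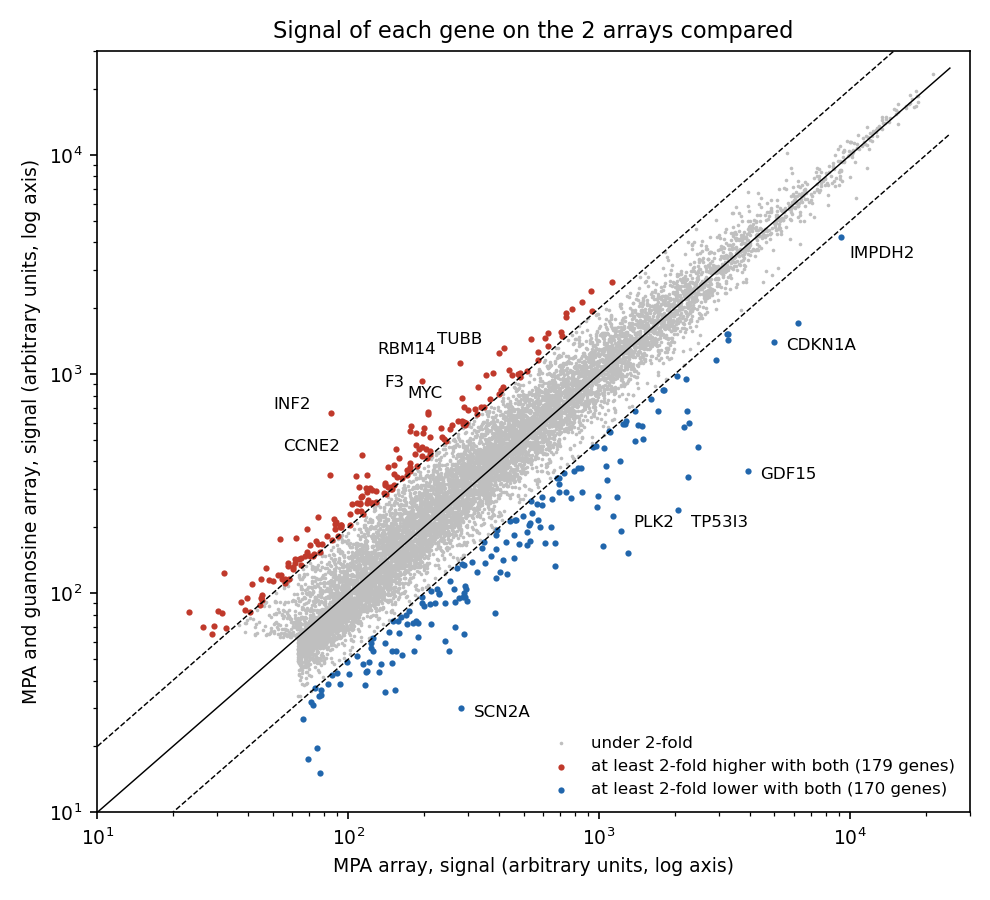
Each point is 1 of 10956 genes, placed by its signal on the MPA array (horizontal, log axis) and on the MPA-and-guanosine array (vertical, log axis). The solid line marks equal signal and the dashed lines a 2-fold difference. The 179 genes at least 2-fold higher with both compounds are red and the 170 at least 2-fold lower are blue.

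Probe sets for the bacterial poly-A control transcripts that exceeded the floor were higher on the array with both compounds than on the MPA array in 22 of 22 cases, with a median difference of 0.52 (range 0.28 to 0.93). Guanosine against control gave a median of 0.22 for the same probe sets. Of the list medians above 0 given below, only those for licensing (0.96), repair (0.83), fork (0.58) and G1 genes (0.54) exceeded 0.52. Background probes with 20 or more G or C bases were lower with both compounds in 6 of 6 cases (median −0.40). The hybridisation controls differed little (18 probe sets, median 0.03, range −0.08 to 0.11), and the ratio of 3′ to 5′ signal for ACTB lay between 1.72 and 1.89 on the log2 scale on the 4 arrays. Probe sets for 28S ribosomal RNA, 5′ and middle, had a median of −0.31 for both compounds against MPA and −0.86 for guanosine against control. Those for 18S had 0.10 and 0.17. The part of the poly-A controls, of the background probes and of the ribosomal RNA probe sets in the gene differences was not tested. The deposited values had been brought to nearly the same distribution on every array (median signal 61.8 to 64.5), which hides any difference in the amount of mRNA a cell holds.

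The cell-line label was set against marker genes. VIM (vimentin), CD44 and CHI3L1, mesenchymal and glioma markers, were above the floor on all 4 arrays, VIM at 19783, 18322, 20015 and 19584 on the control, MPA, guanosine and both-compound arrays. SOX2, S100B, FABP7 and THY1 from the same list of 14 stayed below the floor on every array, as did CDKN2A, which is deleted in this line. Of 10 leukocyte and microglia markers 4 passed the floor on some array, not PTPRC, CD3E or CD14, and the summed signal of the 10 was 2009 to 2780, highest with MPA. Of 11 endothelial and pericyte markers 7 passed, not PECAM1 or CDH5 by their chosen probe sets (sum 1003 to 1121, lowest with MPA). Of 9 epithelial markers 6 passed (sum 507 to 663, highest with MPA), and of 10 neuron and oligodendrocyte markers 6 passed (sum 3192 to 3951, highest with MPA), not NEFL, MBP, MOG or MAG. The part of these markers in the differences was not tested.

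The lower genes were led by targets of p53. Of 22 compared genes of p53-dependent arrest and feedback, 21 were lower when guanosine accompanied MPA, all 21 past 1.5-fold and 15 past 2-fold, and the list median was −1.31. Of 12 death genes linked to p53, 12 were lower and 7 passed 1.5-fold (median −0.82). These counts stand beside the 4.77% of all genes that were 1.5-fold lower and the all-gene median of 0.02. Promoter letters for a pair of p53 half-site cores were searched from 250 bases before to 50 after the transcript start. They stood in 0 of 18 promoters of the arrest list and 0 of 9 of the death list. Among genes at least 2-fold lower they stood in 1 of 138 promoters (0.725%), against 17 of all 9070 (0.187%). Other forms of the site, and sites outside this window, were not searched. A form this rare cannot show whether p53 sites were present or absent in these short lists.

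GDF15, a secreted stress cytokine and p53 target, had the lowest difference of all genes named. Its signal was 397 with DMSO, 3917 with MPA, 351 with guanosine and 363 with both, a difference of −3.43 (10.8-fold). The MPA array was the only high one. The 3 other GDF15 probe sets above the floor ranged from −3.34 to −0.18, so they did not give a single size. TP53I3, a quinone oxidoreductase induced by p53, read 264, 2071, 229 and 240.1 in the same order (−3.11, 8.63-fold), and TP53INP1, an autophagy and death cofactor, read 263, 2254, 332 and 340.2 (−2.73). The other TP53INP1 probe set that passed the floor with MPA was below it with both compounds (at least 1.18-fold). PLK2, a polo-like kinase, read 263, 1218, 193 and 192 (−2.67), and its 2 other probe sets, below the floor with both compounds, were at least 3.03- and 3.37-fold higher with MPA.

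CDKN1A encodes p21, the inhibitor of cyclin-dependent kinases through which p53 blocks entry into S phase. It read 1649 with DMSO, 4961 with MPA, 1373 with guanosine and 1412 with both compounds, a difference of −1.81 (3.51-fold), and its other probe set gave −1.79. MDM2, the ubiquitin ligase that degrades p53 and is itself its target, read 205, 446, 224 and 223 (−0.998), with 2 other probe sets at −1.37 and −1.35. A further 2 passed the floor with MPA but not with both compounds (at least 1.14- and 1.18-fold). In each of these genes the MPA array lay above the other 3. SESN1 (sestrin-1, which restrains mTORC1) gave −2.33 with its other probe set at −2.27, PPM1D (the phosphatase that switches off p53) gave −1.98, DDB2 (DNA damage recognition) −1.93, RRM2B (the p53-inducible ribonucleotide reductase subunit) −1.34 and XPC −1.27. The exception in the arrest list was GADD45B, at 397 with MPA and 463 with both compounds (0.22).

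Among the death genes, the receptor FAS read 304, 857, 305 and 291 on the control, MPA, guanosine and both-compound arrays (−1.56, other probe set −1.57). BBC3, the BH3-only protein PUMA, read 244, 646, 221 and 199.9 (−1.69), with its other probe set at −0.75. TNFSF9, the 4-1BB ligand, gave −2.32 with its other probe set at −1.73, and BAX gave −0.86. BCL2L11 (−0.03) and BID (−0.08), members of the same list, were near 0. For TNFRSF10C, a decoy receptor for TRAIL, the array with both compounds was below the floor, and the MPA array was at least 2.44-fold above that floor.

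Several of the lowest genes were in no p53 list. GDF5, a bone morphogenetic protein family member, read 202, 1309.8, 147 and 154 (−3.09), RRAD, a Ras-related GTPase, read 457, 2488, 436 and 466 (−2.42), and SUGCT, a mitochondrial CoA transferase, read 153, 1038, 156 and 164 (−2.66). None of the 3 had a further probe set above the floor. SCN2A, a neuronal sodium channel subunit, was below the floor on every array but the MPA array, where it read 282, at least 4.48-fold above the floor. CSMD3 passed only with MPA at 77.1 (at least 1.22-fold). HCFC1R1 gave −2.10, with its other probe sets at −2.04 and −1.92. GAS6-AS1, an antisense RNA at the GAS6 locus, gave −2.24, and its other probe set was below the floor with both compounds (at least 8.92-fold). From the p53 arrest list, PTCHD4, a patched-domain protein, read 251 with MPA (at least 3.99-fold above the floor), and SPATA18 gave −2.15, with its other probe set below the floor with both compounds (at least 1.37-fold).

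Lists of S-phase genes, by contrast, lay mostly on the higher side, fewer of their members past 2-fold than past 1.5-fold. Among the 23 genes of the replicative helicase and of origin licensing, 22 were higher with both compounds, 17 of them past 1.5-fold and 11 past 2-fold (median 0.96). Of 30 genes of the replication fork and chromatin assembly 26 were higher, 15 passed 1.5-fold and 3 passed 2-fold (median 0.58). Of 15 genes of homologous recombination and the Fanconi pathway 14 were higher, 12 passed 1.5-fold and 5 passed 2-fold (median 0.83). Of 12 G1 cyclins, kinases and inhibitors 9 were higher, 6 passed 1.5-fold and 4 passed 2-fold (median 0.54). Of the 6, SKP2 had a bound under 1.5-fold. These counts are by measured values. Over all genes 8.82% passed 1.5-fold and 1.63% passed 2-fold on this side.

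GINS2, a subunit of the CMG helicase, was highest in the licensing list, at 633 with DMSO, 200.0 with MPA, 538 with guanosine and 571 with both (1.51). CDT1, which loads the MCM complex onto origins, read 605, 199, 508 and 541 (1.44), with its other probe set at 0.74. MCM6 read 2039, 739, 1981 and 1830.2 (1.31) and MCM2 676, 273, 618 and 612 (1.17). Both are subunits of the MCM helicase ring, and the other probe sets of MCM2 gave 1.22 to 1.39. The other MCM6 probe set was below the floor with MPA (at least 2.22-fold). ORC4, a subunit of the origin recognition complex, was the lowest member, at 338 with MPA and 329 with both (−0.04).

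At the fork, CHAF1A, the large subunit of chromatin assembly factor 1, read 585, 176, 540.0 and 553 on the control, MPA, guanosine and both-compound arrays (1.65). Of its other probe sets 1 gave 0.65 and 1 was below the floor with MPA (at least 2.72-fold). UHRF1, which carries DNA methylation over to new strands, read 1401, 399.9, 1202 and 1245 (1.64, other probe set at least 2.66-fold), and FEN1, the flap endonuclease, read 1979, 739.6, 1908 and 1906 (1.37). PCNA, the sliding clamp, was the lowest member at 3310.5 with MPA and 2842 with both compounds (−0.22). FANCB (at least 1.52-fold), RAD54L (1.18), EXO1 (1.08) and BARD1 (1.01) led the repair list, and XRCC3 (−0.39) was its only lower member.

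CCNE2, an E-type cyclin that drives cells into S phase, was among the 15 highest genes, at 441, 114, 413 and 429 (1.91), with its other probe set below the floor with MPA (at least 1.79-fold). CCNE1 read 448, 198, 442 and 468 (1.24). CDC25A, the phosphatase that activates the CDK2 kinase, read 366, 118, 313 and 302 (1.35), and CCND1, cyclin D1, read 2884, 1959.5, 3080.0 and 3158 (0.69). CDK6 was near 0 (−0.09). MYC, the transcription factor that drives growth and nucleolar genes, read 791 with DMSO, 284 with MPA, 827 with guanosine and 779 with both (1.46). No further MYC probe set was above the floor, and the other 8 compared members of the MYC network lay between −0.73 (MXD4) and 0.20.

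**Figure D2:**
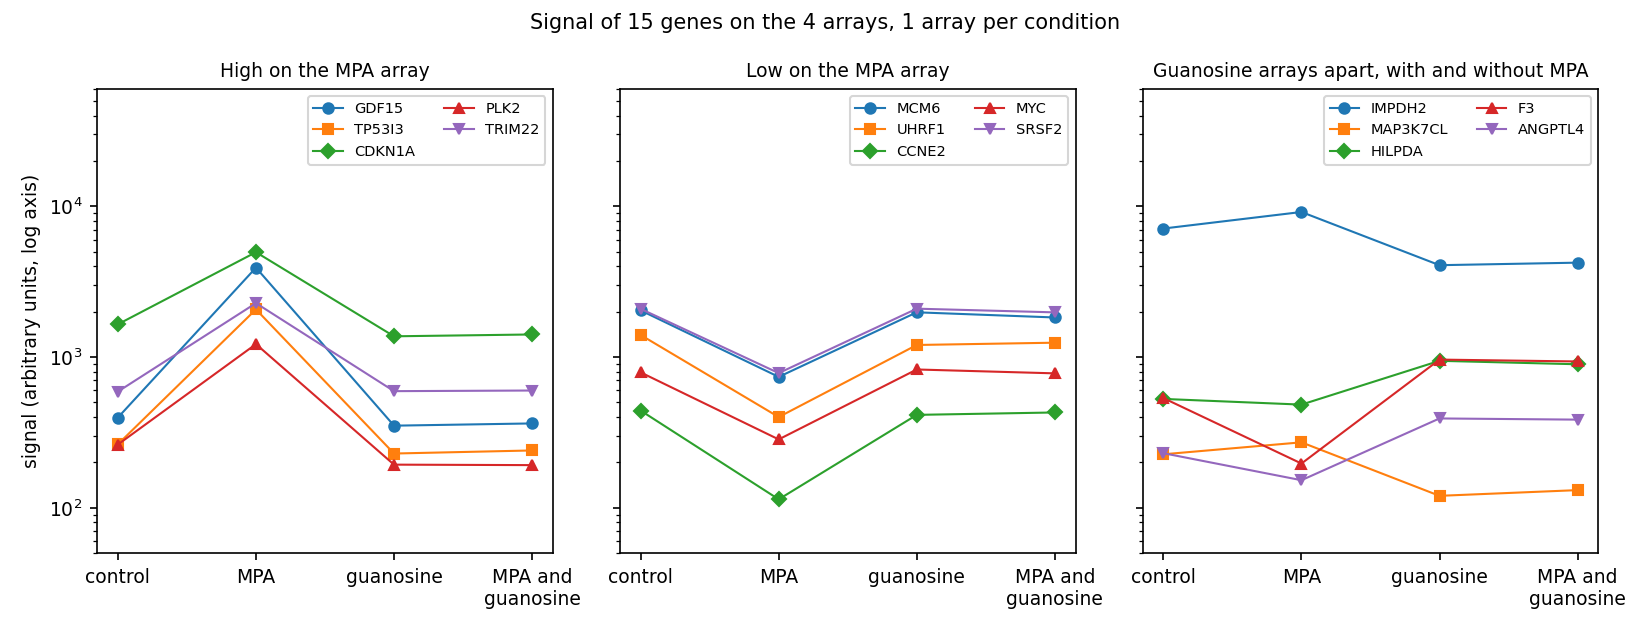
Signal (log axis) of 15 genes on the control, MPA, guanosine and MPA-and-guanosine arrays, 1 array per condition, with lines joining the values of a gene. In the left panel only the MPA array is high (GDF15 at 3917 against 351 to 397), in the middle panel only the MPA array is low (CCNE2 at 114 against 413 to 441), and in the right panel both arrays with guanosine lie apart from both without it (IMPDH2 at 4067 and 4228 against 7120.4 and 9168).

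Promoter letters, which the array does not measure, were searched in the S-phase lists. The RefSeq promoter table (GRCh38.p14) holds a window of 300 bases, from 250 before to 50 after the transcript start, for 9070 of the 10956 genes compared. The letters searched on both strands were the E2F forms TTTCGCGC and TTTGGCGC, and GGCGGGAA, a form found at cell-cycle-dependent elements. An E2F form stood in 6 of 20 licensing promoters (30%) and 5 of 27 fork promoters (18.5%), against 2.13% of all 9070, and in 1 of 13 repair and 1 of 9 G1 promoters. GGCGGGAA stood in 6 of 13 repair promoters (46.2%) and 8 of 27 fork promoters (29.6%), against 5.21% of all, and in 4 of 20 licensing and 0 of 9 G1 promoters. Of the genes at least 2-fold higher, 11 of 155 promoters held an E2F form (7.10%), and of those at least 2-fold lower, 1 of 138 (0.725%). Within the licensing list the 6 genes with an E2F form had a median difference of 0.95 and the 14 without it 0.93. The stretches from 160 bases before to 20 after the start are printed for 3 licensing genes that were at least 2-fold higher, since they show the forms singly and in pairs. They are MCM6 at chr2:135876424-135876603 on the minus strand, MCM2 at chr3:127598251-127598430 on the plus strand and CDT1 at chr16:88803629-88803808 on the plus strand. Capitals mark the E2F forms, CACGTG (in MCM2) and, in CDT1, GGCGGGAA.
MCM6: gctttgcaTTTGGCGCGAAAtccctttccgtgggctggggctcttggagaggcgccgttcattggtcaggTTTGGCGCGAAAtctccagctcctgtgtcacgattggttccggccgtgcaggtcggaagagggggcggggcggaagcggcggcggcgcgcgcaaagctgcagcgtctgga
MCM2: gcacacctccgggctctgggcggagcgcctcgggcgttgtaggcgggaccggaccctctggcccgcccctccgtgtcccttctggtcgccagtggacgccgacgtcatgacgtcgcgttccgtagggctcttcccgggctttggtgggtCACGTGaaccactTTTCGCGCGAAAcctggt
CDT1: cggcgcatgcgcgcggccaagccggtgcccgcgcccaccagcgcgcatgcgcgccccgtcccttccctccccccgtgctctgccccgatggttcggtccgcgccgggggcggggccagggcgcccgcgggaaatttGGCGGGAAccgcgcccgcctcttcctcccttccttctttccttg

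In MCM6 the forms overlap on opposite strands at 2 places, from −152 to −141 and from −90 to −79 counted from the transcript start. In MCM2 they lie just inside the transcript, from 3 to 14, with CACGTG from −11 to −6. CDT1 holds GGCGGGAA from −24 to −17.

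Of 56 genes of G2, mitosis and the spindle, 50 were higher with both compounds than with MPA alone, 13 by at least 1.5-fold, beside 8.82% of all genes, and none by 2-fold (median 0.36). In the arrays without MPA, guanosine against DMSO, 55 of 56 were lower (median −0.34), 3 of them by at least 1.5-fold, beside 0.131% of all genes. The S-phase lists lay below 0 there too: 28 of 30 fork genes (median −0.14), 17 of 23 licensing genes (−0.13) and 10 of 12 G1 genes (−0.15) were lower, none by 1.5-fold. Over all genes in that comparison the median was −0.0009, with an SD across genes of 0.16. The difference between these lists was not tested. BUB1B, the spindle-checkpoint kinase BUBR1, read 722 with DMSO, 287 with MPA, 573 with guanosine and 568 with both compounds (0.98 with MPA, −0.33 without). CDC20, which activates the anaphase-promoting complex, read 2201, 1098, 1377 and 1428 (0.38 and −0.68), and SPC25, a kinetochore subunit, read 855, 423, 521 and 547 (0.37 and −0.72). In these 3 genes both arrays with guanosine sat between the MPA array below and the DMSO array above. KIF20A, a cytokinesis motor, differed: it read 757, 677, 458 and 457, lower with guanosine in both settings (−0.57 and −0.72).

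Of 46 promoters in the mitosis list, 31 held TTTGAA, the cell-cycle homology region (CHR) bound by the DREAM and MuvB complexes (67.4%, against 9.98% of all promoters), and 32 held CCAAT on either strand (69.6% against 36.7%). The 31 genes with TTTGAA had a median difference of 0.38 and the 15 without it 0.24. BUB1B (chr15:40160909-40161088 on the plus strand) and KIF23 (chr15:69414189-69414368 on the plus strand), a motor of the central spindle at 788, 349, 623 and 606 on the 4 arrays (0.79), are printed because TTTGAA lies close to the start in each, from −23 to −18 and from −55 to −50. Capitals mark it.
BUB1B: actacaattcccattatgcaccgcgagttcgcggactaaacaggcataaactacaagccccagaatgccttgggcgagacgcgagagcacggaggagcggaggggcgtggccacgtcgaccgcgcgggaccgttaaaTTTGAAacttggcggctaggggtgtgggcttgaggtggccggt
KIF23: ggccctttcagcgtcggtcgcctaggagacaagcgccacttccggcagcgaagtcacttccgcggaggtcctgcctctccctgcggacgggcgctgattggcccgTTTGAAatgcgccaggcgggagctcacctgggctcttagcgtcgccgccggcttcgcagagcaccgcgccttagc

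Nucleolar genes were higher as a group, by smaller amounts. The list medians below were no larger than the median of 0.52 for the poly-A control probe sets on the same pair of arrays. The part of those controls was not tested. Of 74 ribosome biogenesis and nucleolar factors, 71 were higher with both compounds than with MPA alone and 19 passed 1.5-fold (median 0.42), against 52% and 8.82% of all genes. All 15 compared genes of the RNA polymerase I machinery were higher (median 0.49), 5 of them by 1.5-fold against the same shares, though POLR1B was at 0.02 and turned to −0.08 under cyclic loess normalisation. RNA polymerase III genes were centred near 0 (15 of 23 higher, median 0.07), as were 59 cytosolic ribosomal proteins (median 0.04). RPL27A was the single ribosomal protein past 1.5-fold by its measured values, but it was below the floor with MPA and is known only as at least 1.45-fold.

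NOLC1, a nucleolar chaperone of small nucleolar particles, read 2831 with DMSO, 1452 with MPA, 2822 with guanosine and 2791 with both (0.94, other probe set 1.02). NOP16 read 1253, 661, 1175 and 1254 (0.92, other probe set 1.04), and the RNA helicase DDX21 read 3540.3, 1887, 3240.4 and 3341 (0.82). Both act in ribosomal RNA processing. NCL, nucleolin, gave 0.42 and NPM1, nucleophosmin, the abundant histone and ribosome chaperone, gave 0.20. FBL, the methyltransferase fibrillarin, gave 0.15. RRP7A was the highest member by its measured values (1.38) and DDX52 the lowest (−0.08). In the polymerase I list, POLR1E (159, 67.5, 149 and 149) gave 1.14, POLR1A, the catalytic subunit, 0.66, the initiation factor RRN3 0.51 and the promoter factor UBTF 0.32. The other probe sets of RRN3 gave 0.08 and those of UBTF −0.03 to 0.18, smaller than the values of their chosen probe sets.

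CACGTG, the E-box that MYC and MAX bind, stood in 24 of 64 promoters of ribosome biogenesis factors (37.5%, against 10.4% of all promoters). The 24 genes with it had a median difference of 0.34 and the 40 without it 0.42, so the letters did not go with the larger differences in this list. MRTO4, a ribosome stalk assembly factor at chr1:19251645-19251824 on the plus strand, is printed as an example, with CACGTG in capitals from 15 to 20. It read 1152, 666, 1113 and 1146 (0.78, other probe set 0.98).
MRTO4: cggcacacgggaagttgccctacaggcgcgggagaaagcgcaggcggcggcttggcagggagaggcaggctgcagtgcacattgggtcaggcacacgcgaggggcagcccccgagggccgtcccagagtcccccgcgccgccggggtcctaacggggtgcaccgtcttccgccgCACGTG

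Splicing factors followed the same direction, with a list median likewise no larger than that of the poly-A controls (0.52). Of 28 SR and hnRNP proteins, which bind exons and introns to guide splice-site choice, 25 were higher and 8 passed 1.5-fold (median 0.50), beside 8.82% of all genes. SRSF2 read 2087, 783, 2094 and 1979 on the control, MPA, guanosine and both-compound arrays (1.34), with other probe sets at 0.33 and 1.23. SRSF7 read 3524, 1827, 3545 and 3617 (0.99). HNRNPL was the lowest member (−0.47). RBM14, a paraspeckle protein and coactivator, was among the 15 highest genes, at 1045, 279.7, 1039.7 and 1131 (2.02, other probe set 1.11), and TUBB, beta-tubulin, read 1199, 417, 1291 and 1314 (1.66), with 5 other probe sets between 1.11 and 1.58.

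**Figure D3:**
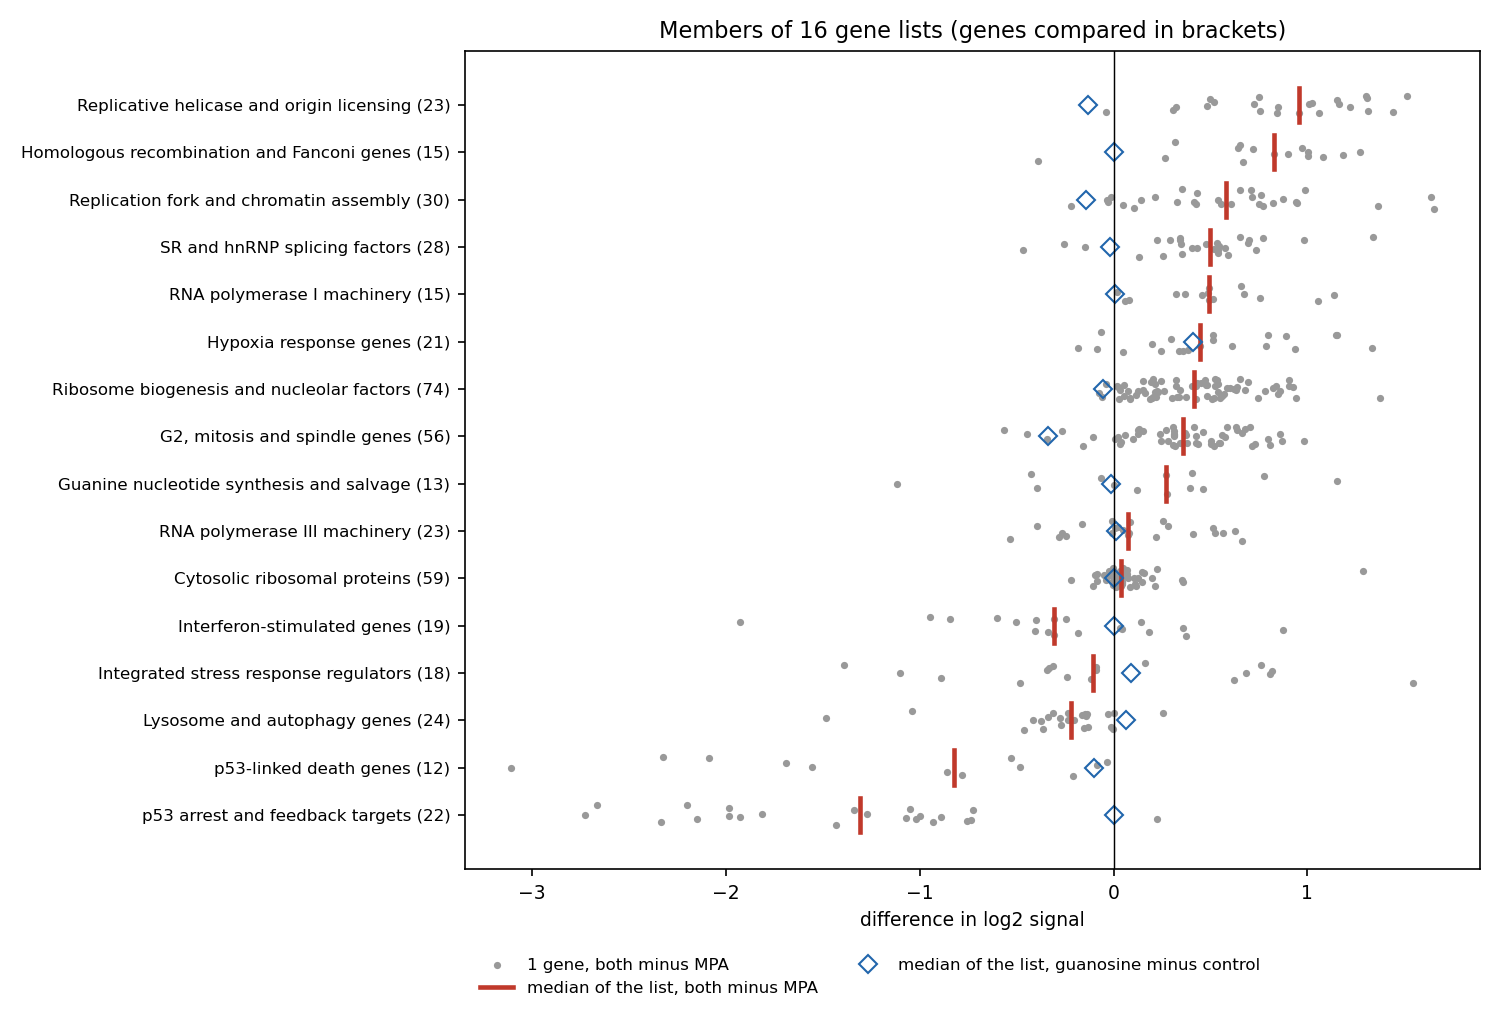
Members of 16 gene lists (number of genes compared in brackets), each grey point 1 gene by its log2 signal with both compounds minus that with MPA. Red bars mark the list medians, from −1.31 (p53 arrest and feedback) to 0.96 (origin licensing), and open blue diamonds the median of the same list for guanosine minus control, which is 0.41 for hypoxia response genes and −0.34 for G2 and mitosis genes.

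Nucleotide metabolism was mixed. IMPDH2, the isozyme that MPA inhibits more strongly, was lower on both arrays with guanosine: 7120.4 with DMSO, 9168 with MPA, 4067 with guanosine and 4228 with both compounds. The difference was −1.12 with MPA (2.17-fold) and −0.81 without it, and 5 other IMPDH2 probe sets gave −1.43 to −1.28 with MPA. The 2 arrays with guanosine did not overlap the 2 without it. IMPDH1 was at 877 with MPA and 1207 with both (0.46), but its 2 other probe sets lay between −0.27 and 0.31. GMPS, the next enzyme of the pathway, gave 0.41. HPRT1, which salvages guanine, read 2541, 1984, 2545 and 2604 (0.39), and PNP gave 0.27.

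Of 13 genes of guanine nucleotide synthesis and salvage, 9 were higher (median 0.27), beside 52% of all genes. Of these 13, 2 passed 1.5-fold on the higher side, beside 8.82% of all genes, and AK4 was the highest (1.15). On the lower side 1 passed, IMPDH2, beside 4.77%. Of 9 enzymes of de novo purine synthesis, 6 were higher and 3 passed 1.5-fold (median 0.12), beside 8.82% of all genes. These were GART (626, 359, 644 and 646 on the control, MPA, guanosine and both-compound arrays, 0.85), PAICS (0.74) and PPAT (0.66), the last being the committed step. Of 16 genes of deoxynucleotide and pyrimidine synthesis 14 were higher, mostly by little (median 0.32), with CTPS2, a CTP synthase, at 0.73 and TYMS, thymidylate synthase, at −0.05. Of 10 nucleoside transporters and nucleotidases 7 were higher (median 0.10), beside 52% of all genes. The equilibrative transporter SLC29A1 was at 0.11 and SLC29A2 at −0.44.

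Guanosine was also given without MPA, on a pair of arrays separate from the pair above, and there it gave far smaller differences. Guanosine exceeded DMSO by 1.5-fold or more in 39 of 10663 genes (0.366%) and fell short of it by as much in 14 (0.131%), with an SD across genes of 0.16. Over the 179 genes at least 2-fold higher with both compounds than with MPA, guanosine minus control had a median of 0.07, and over the 170 lower genes −0.06. Across 11019 genes above the floor on any of the 4 arrays, the differences with and without MPA correlated with Pearson r = 0.18 and Spearman rho = 0.20. Genes are not independent replicates, and the 4 arrays share 1 normalisation. Over these 11019 genes, 15 were at least 1.5-fold higher in both settings by their measured values, which is 38.5% of the 39 higher without MPA and 1.55% of the 967 higher with it. At least 1.5-fold lower in both were 4 genes, 26.7% of 15 and 0.765% of 523, the 15 holding PPP1R1C beside the 14 above because it passed the floor on the MPA array.

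F3, tissue factor, the cell-surface initiator of clotting, was high in both settings: 534 with DMSO, 197 with MPA, 962 with guanosine and 935 with both (2.25 with MPA, 0.85 without), and its 2 other probe sets, below the floor with MPA alone, were at least 1.28- and 2.80-fold higher with both. HILPDA, a lipid-droplet protein, read 527, 484, 944 and 896 (0.89 and 0.84). ANGPTL4, a secreted inhibitor of lipoprotein lipase, read 230.2, 152, 391 and 384 (1.33 and 0.77), and INSIG2, which retains SREBP in the endoplasmic reticulum, read 281, 205, 466 and 454 (1.15 and 0.73). In these genes both arrays with guanosine exceeded both arrays without it, which follows largely from picking genes higher with guanosine in both settings. CFAP96 (0.98 and 0.85), INSYN2A (0.74 and 0.79) and FAM117B (0.84 without MPA, and at least 1.97-fold with it) completed the highest shared genes with ASNS. Of the 4 shared lower genes, IMPDH2 and MAP3K7CL (226, 272, 120.0 and 131, −1.05 and −0.92) were above the floor on all arrays. The other 2 are not shown to be 1.5-fold lower in both settings: PPP1R1C was at least 1.47-fold lower with MPA present and below the floor on both arrays without it, and ZNF425, below the floor on each array with guanosine, was lower by a minimum of 1.79-fold with MPA and 1.47-fold without it.

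HILPDA, ANGPTL4 and INSIG2 belong to the hypoxia response list. Of its 21 compared genes 18 were higher with both compounds than with MPA, 8 by at least 1.5-fold (median 0.44, background 8.82%), and 21 of 21 were higher with guanosine than with DMSO, 6 by at least 1.5-fold (median 0.41). The background in the second comparison is 0.366%, with an all-gene median of −0.0009. EGLN1, the prolyl hydroxylase that marks HIF alpha subunits for degradation, read 1135, 829, 1526 and 1439 (0.80 and 0.43), and PDK1, the mitochondrial pyruvate dehydrogenase kinase, read 637, 616, 867 and 838 (0.44 and 0.45). MXI1, a MYC antagonist, was apart: it read 519, 817, 883 and 844, so it was higher with guanosine without MPA (0.77) and at 0.05 with it. P4HA1, a collagen prolyl hydroxylase, gave −0.18 and 0.14. Of 16 glycolytic enzymes, which overlap with the HIF programme, 9 were higher with both compounds, none by 1.5-fold (median 0.04).

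ASNS, asparagine synthetase, read 615, 483, 1021 and 1011 (1.07 with MPA, 0.73 without), with 3 other probe sets from 0.76 to 0.87 with MPA. It is a target of ATF4, the transcription factor of the integrated stress response. ATF4 itself read 3026, 2270.0, 3931 and 4006 (0.82 and 0.38). In the serine, glycine and one-carbon list, 14 of 15 genes were higher with both compounds (median 0.37), beside 52% of all genes. PSAT1, phosphoserine aminotransferase, read 1311, 968, 1815 and 1872 (0.95 and 0.47). PSPH, the phosphatase of the last step of serine synthesis, was at least 1.33-fold higher. The regulators of the integrated stress response were split, with 7 of 18 higher and a median of −0.10. VLDLR, a lipoprotein receptor, read 321, 156, 470.0 and 455 (1.55), while DDIT3, the death-promoting factor CHOP, read 234, 569.7, 196 and 217 (−1.39) and ATF3 read 143, 289, 151 and 135 (−1.10). TGATGNAA, the joint site of ATF4 and C/EBP, stood in 2 of 12 promoters of the serine list (16.7%), those of ASNS and MTHFD1L, against 1.92% of all. It also stood in 3 of 16 promoters of stress response regulators (18.8%), 4 of 11 of amino acid transporters (36.4%) and 6 of 16 of aminoacyl-tRNA synthetases (37.5%). The 6 synthetases with it had a median difference of 0.11 and the 10 without it 0.29. In ASNS (chr7:97872389-97872568 on the minus strand) it runs from −68 to −61 and is shown in capitals.
ASNS: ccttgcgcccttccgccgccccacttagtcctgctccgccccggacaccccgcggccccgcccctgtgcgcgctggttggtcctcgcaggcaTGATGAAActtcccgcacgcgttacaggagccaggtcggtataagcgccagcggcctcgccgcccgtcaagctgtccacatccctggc

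**Figure D4:**
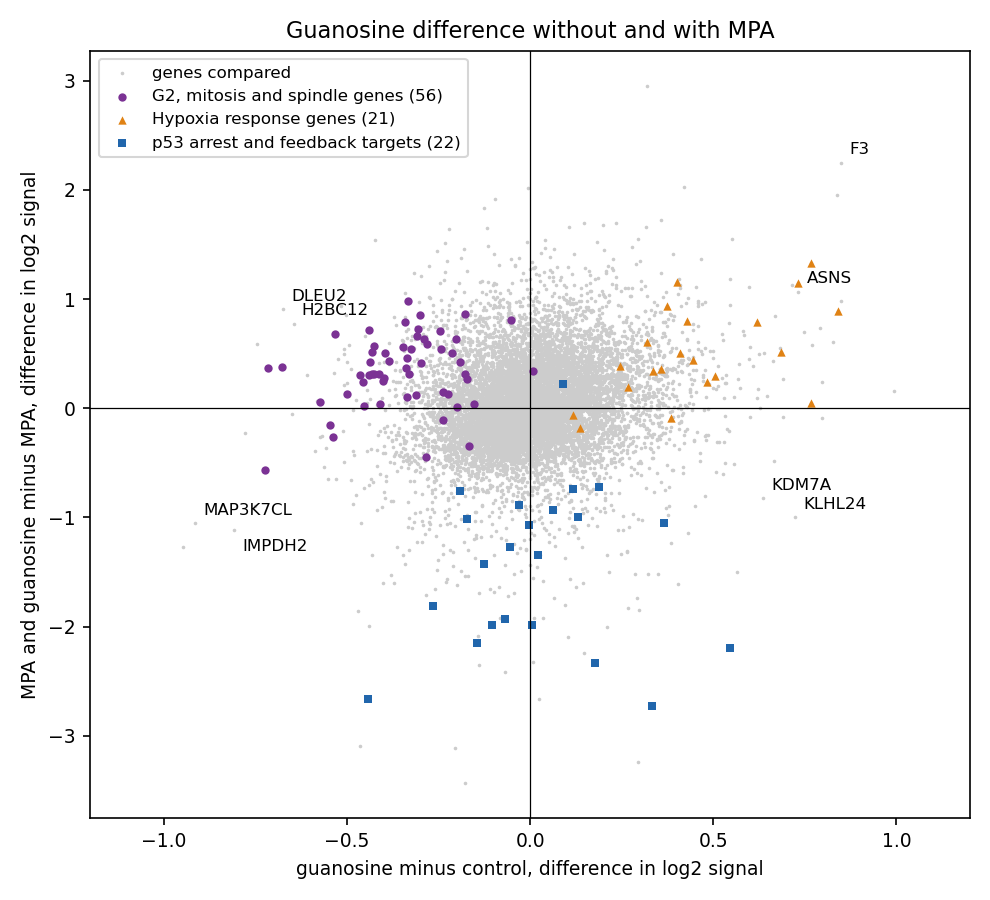
Each point is 1 gene, placed by its log2 signal with guanosine minus that with DMSO (horizontal) and its log2 signal with both compounds minus that with MPA (vertical), 2 differences that share no array. Hypoxia response genes lie mostly to the upper right (medians 0.41 and 0.44), G2 and mitosis genes to the upper left (−0.34 and 0.36), and p53 arrest genes low and near 0 on the horizontal axis (medians 0.00 and −1.31).

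Signalling and surface genes gave smaller lists with strong single members. INF2, a formin that severs and assembles actin filaments, had the highest difference of all named genes, at 538 with DMSO, 85.8 with MPA, 670.1 with guanosine and 666 with both (2.96, 7.76-fold). Its 3 other probe sets above the floor lay between −0.21 and 1.04, so this size rests on 1 probe set. Of 22 formins and actin assembly factors 4 passed 1.5-fold on the higher side, INF2 included, beside 8.82% of all genes, and the list median was 0.16. SPRY2 (1223, 534, 1407 and 1455, 1.45) and DUSP6 (1696, 932, 2343 and 2410.0, 1.37), feedback inhibitors of the ERK pathway, were higher with both compounds, while DUSP10 was lower (−0.98), and the list of 15 had a median of 0.27. The EGF-family ligand HBEGF read 628, 187, 468 and 542 (1.54) and NRG1, neuregulin 1, read 195, 351, 144 and 138 (−1.35), in opposite directions.

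HAS2, hyaluronan synthase, was below the floor with MPA and at least 1.31-fold above it with both compounds. ACTA2, smooth-muscle actin, read 503, 1476, 581 and 583 (−1.34), and TIMP3, an inhibitor of metalloproteinases, gave −1.11 and CCN2, the connective tissue growth factor, −1.05. Of 28 collagen, matrix and TGF-beta target genes 19 were lower, 3 of them by 1.5-fold (median −0.20), beside 4.77% of all genes. Interferon-stimulated genes had a median of −0.31 with 12 of 19 lower, 4 of them by 1.5-fold, beside 4.77% of all genes. The other 7 were higher, beside 52% of all genes. TRIM22 stood well below the rest at 589.9, 2278, 594 and 599.7 (−1.93), with 4 other probe sets between −2.17 and −1.54 and a further one below the floor with both compounds (at least 2.62-fold). TRIM22 is also a p53 target. IFIT1 gave −0.95 and IFI44 0.87, so the list held members on either side of 0.

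Of 24 lysosome and autophagy genes 22 were lower with both compounds than with MPA (median −0.22). The other 2 were higher, beside 52% of all genes. Only NEU1, a lysosomal sialidase (473, 1064, 397 and 380.1, −1.49), and GPNMB, a melanosomal and lysosomal glycoprotein (458, 971, 476 and 473, −1.04), passed 1.5-fold, 2 of 24, beside 4.77% of all genes. Of 23 genes of cholesterol and fatty acid synthesis 18 were higher (median 0.25), beside 52% of all genes. The fatty acid elongase ELOVL6 was at 1.16 and INSIG1 at 0.93. In the NRF2 list, the thioredoxin reductase TXNRD1 (2955, 5157, 3202 and 3051, −0.76) and NQO1 (−0.68) were lower while the haem oxygenase HMOX1 was higher (0.81). Histone genes differed member by member, with H2BC21 at least 2.9-fold higher with MPA alone than with both compounds and H2BC12 at 0.77 in the other direction.

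Of the remaining members of the 15 highest genes, ZC3HAV1L (246, 85, 329 and 347, 2.03), RAB23, a GTPase of ciliary trafficking (515, 179, 571 and 580.3, 1.70), RASSF1, a Ras-association tumour suppressor (508, 207, 598 and 672, 1.70), and OPN3, an opsin (574, 208, 714 and 661, 1.66), were each lowest on the MPA array. LOC105372733 gave 1.67 and PARP16, a mono-ADP-ribosyltransferase of the endoplasmic reticulum, was at least 2.81-fold higher. ZC3HAV1L, OPN3 and LOC105372733 had no further probe set above the floor. RAB23 had 2, at 1.39 and, with MPA below the floor, at least 2.61-fold, and RASSF1 had 1, at 1.21. Of the 179 higher genes 105 had other probe sets above the floor, whose median had the same sign in 100. Of the 170 lower genes this held for 81 of 82. In 35 of the higher and 40 of the lower genes 1 array was below the floor, so their size is known only as a lower bound, which stayed under 2-fold in 26 of the 179 and 26 of the 170. At the 1.5-fold limit the bound stayed under it in 50 of 966 higher and 60 of 523 lower genes.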

How the data were processed

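Per the labels' protocols, biotin-labelled target was made from total RNA of U87MG cells and hybridised to PrimeView arrays, 1 array per condition. The deposited values are intensity values on a linear scale, summarised per probe set with RMA, per the labels, for 49395 probe sets. For the software, its version and its settings: not given in the sources used here. RMA equalises the arrays' distributions and compresses low values. Here the values were turned to log2. Probe sets with 1 gene symbol (44988) were kept, and each gene took the probe set of highest 4-array mean, leaving out names ending in _x_at unless a gene had no other. The 20 symbols not found in RefSeq kept the annotation's name.

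A gene was compared where at least 1 of the 2 arrays reached the floor, the median of all values excluding control probe sets. A gene is called higher or lower from 2-fold, or 1.5-fold where stated. If only 1 array passed the floor, the brighter signal over the floor is given as "at least". With 1 array a side, no p-value, SD over replicates or interval exists, and precision is limited by the number of arrays. Named genes were the 15 highest and 15 lowest whose other probe sets above the floor, if any, had a median of the same sign. A further set was 18 genes of the pathway. Extremes of many of the lists, with up to 4 more on each side, and genes shared with guanosine against control were named too. Other genes named beside a list or a promoter were picked with their values in view. The members and the 46 gene lists (1038 genes) were chosen with earlier results of these data known. Counting was tested on simulated data. Tools were Python 3.11.15, R 4.3.3 and limma 3.58.1. Alternatives were other floors, other choices of probe set, centring and cyclic loess.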

Additional observations from a re-analysis of the deposited data

Results flagged for a closer look

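The genes of G2, mitosis and the spindle are given because guanosine went with opposite medians in the 2 settings: 0.36 with MPA and −0.34 without it, a difference between the differences of 0.69 over 56 genes. With 1 array per condition that difference was not tested. The poly-A control probe sets had medians of 0.52 with MPA and 0.22 without it, and their part was not tested. Replication fork genes (0.58 and −0.14) and licensing genes (0.96 and −0.13) also had opposite signs.

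For 5 single genes the measured guanosine difference was 1.5-fold or more in both settings with opposite signs, which was likewise not tested. For 2 of the 5 the DMSO array was below the floor. DLEU2, a long non-coding RNA, read 318 with DMSO, 127 with MPA, 199.6 with guanosine and 239 with both compounds, and the difference with MPA exceeded that without it by 1.58. H2BC12, a histone H2B gene, read 1729, 642, 1105 and 1098 in the same order (1.42). Its difference with MPA fell as low as 0.36 over the alternatives in processing, which is under 1.5-fold. HMGB3, a chromatin protein, read 205, 78.4, 122 and 118 (1.33), though its other probe set gave 0.11 with MPA. KLHL24, a ubiquitin ligase adaptor, read 55.4, 178, 91.5 and 89.3 (−1.72). Its 2 other probe sets passed the floor only on the MPA array, so they cannot show a direction without MPA. KDM7A, a histone demethylase, read 46.6, 112, 72.4 and 63.4 (−1.46). Without MPA, KLHL24 and KDM7A are known only as at least 1.45-fold and at least 1.15-fold higher with guanosine, so neither is shown to reach 1.5-fold there. In all 5 genes both arrays with guanosine lay between the DMSO and the MPA arrays, which follows largely from picking genes with opposite signs.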

How the results depend on the processing

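No paired analysis was possible because each condition had 1 array, and no array could be left out for the same reason. The count of genes at least 2-fold higher ranged from 113 to 188 and that of genes at least 2-fold lower from 110 to 185 over 8 alternatives. The lowest, 113 and 110, came with the floor at the 75th percentile (signal 244), which left 6522 genes to compare, and there the 1.5-fold lower genes numbered 289. With cyclic loess, 140 of the 179 higher and 159 of the 170 lower genes stayed 2-fold. With the median over probe sets, 92 and 106 did. Of the named genes, POLR1B turned (−0.085, cyclic loess), and INF2 was 0.66, CHAF1A 0.65 and TP53INP1 −1.54 with the median over probe sets. List medians near 0 turned in 12 of 367 recomputations: with no floor, glioma and mesenchymal markers (−0.00496) and endothelial and pericyte markers (−0.018); with the floor at the 75th percentile, amino acid transporters (0.37), immediate early factors (0.16), EGF-family genes (0.18) and integrins (0.046); with the floor on both arrays, integrins (0.046); with the median over probe sets, amino acid transporters (0.17) and EGF-family genes (0.15); with agreeing probe sets only, the MYC network (−0.034) and EGF-family genes (0.18); with cyclic loess, the MYC network (−0.032). The cause was not tested. The share of genes higher by any amount ran from 42.6% to 60.5%. Signal over background limits the sizes of genes with an array below the floor.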
